A study of Homo sapiens with 6 samples.

Results

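The 7 genes described here encode the enzymes and factors that make selenocysteine and insert it into protein: SEPHS1, SEPHS2, PSTK, SEPSECS, SECISBP2, EEFSEC and SCLY. They were chosen by gene symbol for their role in the pathway, but with earlier results of these data known. All 7 were found among the 16953 genes of the authors' deposited table. The RNA came from H1048, an established human small cell lung cancer line of wild-type genotype label, in 6 samples. The treated group was 3 samples given ISP-I (isovalerylspiramycin I, a macrolide) at 10 µM for 48 h, and the control group was 3 samples given the solvent DMSO, at no more than 0.02%, for 48 h. The table compares libraries D, E and F with libraries A, B and C, and no source used here says which set received ISP-I, so every difference below sets libraries D to F against the other set and is not assigned to the treatment.

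Selenocysteine is the amino acid of the redox enzymes called selenoproteins, and it is encoded by UGA, a codon that otherwise ends translation. It has no synthetase of its own. A serine is first loaded onto a dedicated tRNA, PSTK phosphorylates that serine, and SEPSECS replaces the phosphate with selenium taken from selenophosphate, which SEPHS2 makes. EEFSEC, a specialised elongation factor, carries the finished tRNA to the ribosome, and SECISBP2 binds the hairpin in the selenoprotein mRNA (the SECIS element) that marks a UGA for recoding. SCLY recovers selenium from selenocysteine when selenoproteins are broken down.

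SEPHS2 is itself a selenoprotein, so its own mRNA needs the machinery it serves, while its paralogue SEPHS1 has another codon at the matching place. The coding sequences of both are shown because they carry this difference between members. In each, the capitals mark the codon, preceded by 24 bases and followed by 21, read from the GENCODE 29 transcripts (GRCh38).
SEPHS2, codon 60 of 448: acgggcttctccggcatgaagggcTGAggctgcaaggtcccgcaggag
SEPHS1, codon 29 of 392: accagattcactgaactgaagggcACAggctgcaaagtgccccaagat
The SEPHS2 codon lies at chr16:30445548-30445550 on the minus strand, in the only exon of that gene, and the SEPHS1 codon at chr10:13344864-13344866 on the minus strand, in exon 2 of 9. The windows shared 33 of 48 bases without a gap. Over 391 aligned codons, 297 (76.0%) encoded the same amino acid and 122 (31.2%) had the same bases. SEPHS2 was the only one of the 7 members with an in-frame TGA before its stop codon.

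In the authors' deposited table, 1 of the 7 members was higher in libraries D to F (SEPSECS, 2.17-fold), 2 were lower (SEPHS1, 2.26-fold lower, and SECISBP2, 1.65-fold lower) and 4 did not pass an adjusted p under 0.05. Of all 15976 genes with an adjusted p, 29.7% were higher and 27.9% were lower by the same rule, or 57.6% in either direction, so the share of members called is not above the background. The members' log2 fold changes ran from -1.17 to 1.12 around a median of 0.22, against a median of 0.05 over the tested genes. Their median absolute log2 fold change was 0.72, against 0.67 over the tested genes. The table gives no standard errors, and the values of single libraries are not used here, so no spread between replicates stands beside these differences.

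**Figure D1:**
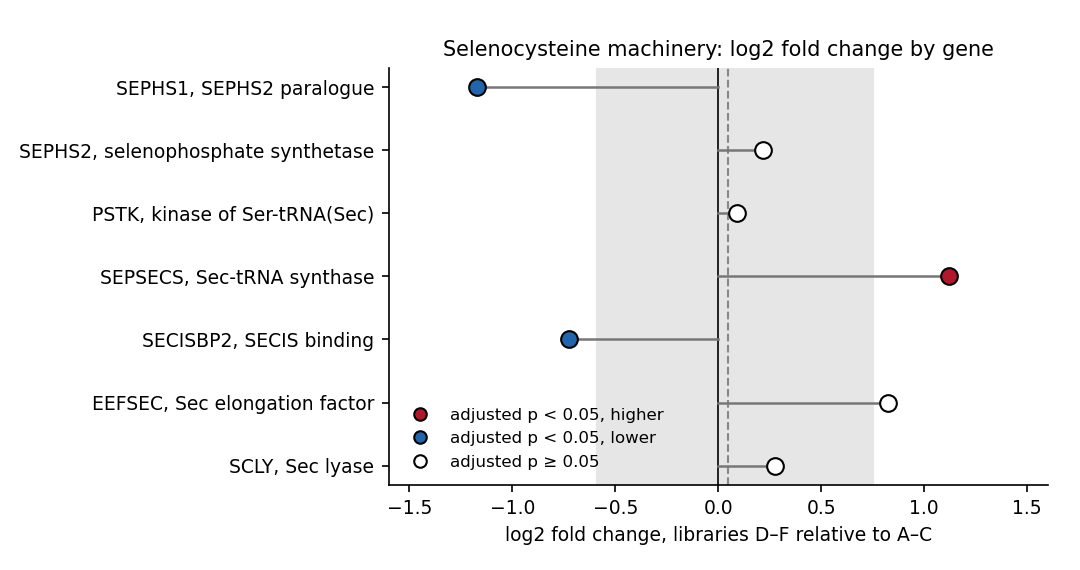
The log2 fold change of each of the 7 genes (libraries D to F over libraries A to C, horizontal axis, as deposited by the authors), in order of role; filled points passed an adjusted p under 0.05. The grey band spans the middle of all tested genes, from the lower quartile at -0.59 to the upper at 0.75, and the dashed line is their median at 0.05; SEPHS1, SECISBP2, SEPSECS and EEFSEC lie outside the band, the last without passing.

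The selenophosphate synthetase paralogues differed in call. SEPHS1 (ENSG00000086475.14; chr10:13317424-13348298, minus strand) had a log2 fold change of -1.17 with an adjusted p of 2.28e-29 in the authors' deposited table, rank 955 of 15976 by p. SEPHS1 resembles the family but lacks the reactive residue, and it is not thought to supply selenophosphate for selenocysteine. SEPHS2 (ENSG00000179918.18; chr16:30443631-30446181, minus strand), the enzyme that does, had a log2 fold change of 0.22 with an adjusted p of 0.0715 in the same table. Its unadjusted p was 0.0429, so it lies just outside the threshold. The difference between the paralogues was not tested, since this needs the values of single libraries.

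The enzymes that convert serine to selenocysteine on the tRNA also differed in call. SEPSECS (ENSG00000109618.11; chr4:25120014-25160442, minus strand), which catalyses the last step, had a log2 fold change of 1.12 and an adjusted p of 5.02e-21 in the authors' deposited table. It ranked 1514 of 15976 by p, and 83.1% of tested genes had a lower log2 fold change. PSTK (ENSG00000179988.14; chr10:122954381-122997513, plus strand), the kinase that acts just before it, had a log2 fold change of 0.09 and an adjusted p of 0.742. It was among the least changed genes: 92.2% of tested genes had a larger absolute change.

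The decoding factors held the second lower member and the highest p of the 7. SECISBP2 (ENSG00000187742.14; chr9:89318506-89359662, plus strand), whose binding to the SECIS hairpin is needed for UGA recoding, had a log2 fold change of -0.72 and an adjusted p of 6.13e-10 in the authors' deposited table. Its paralogue SECISBP2L, which also binds SECIS hairpins, was at -0.18 with an adjusted p of 0.151. EEFSEC (ENSG00000132394.10; chr3:128153454-128408646, plus strand) had a log2 fold change of 0.82, or 1.77-fold, larger in size than that of SECISBP2, but an adjusted p of 0.839. The fold of EEFSEC is therefore given as listed and is not a call in either direction.

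**Figure D2:**
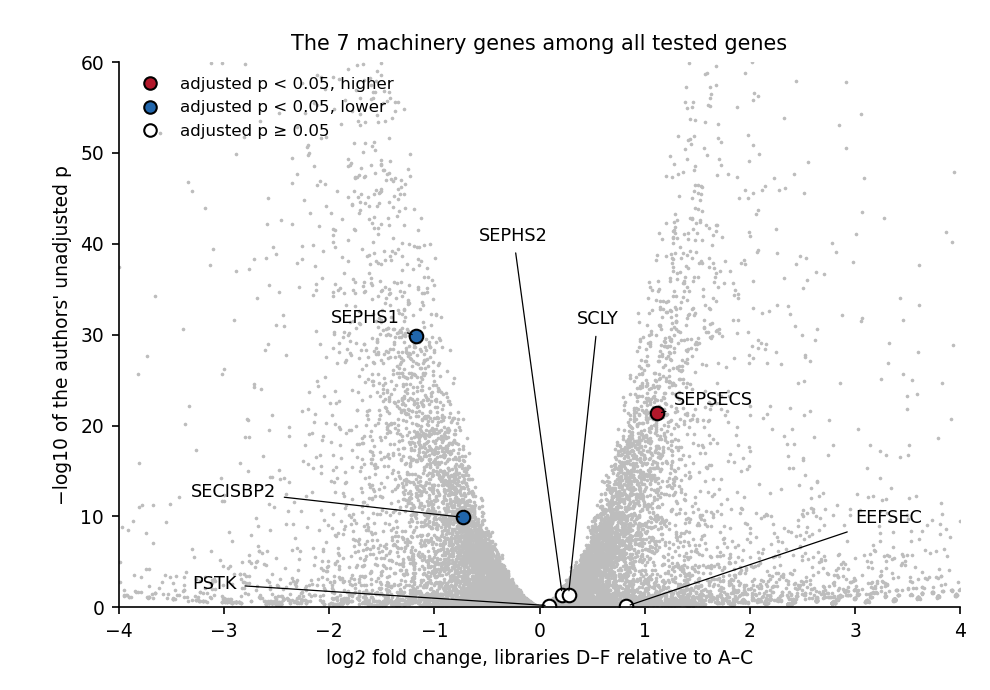
Each grey point is a tested gene, with its log2 fold change (libraries D to F over libraries A to C) on the horizontal axis and −log10 of the authors' unadjusted p on the vertical axis; 617 genes beyond the axes are not drawn. SEPHS1, SEPSECS and SECISBP2 (filled) lie on the arms of the cloud, and EEFSEC (open) sits on the floor at 0.82.

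The p of EEFSEC can be read against those of genes with a fold of like size. A window chosen after its value was seen holds 817 tested genes with an absolute log2 fold change within 0.05 of that of EEFSEC. Of these, 629 (77.0%) passed an adjusted p under 0.05 in the authors' deposited table, and only 9, EEFSEC included, had an unadjusted p as high as its 0.791 or higher. In the equal windows around the called members, 81.0% of 453 genes passed near SEPHS1, 81.3% of 486 near SEPSECS and 81.6% of 859 near SECISBP2. Around SCLY 43.2% of 1220 genes passed, around SEPHS2 14.9% of 1289 and around PSTK 0 of 1360. EEFSEC shares 370 of its 2421 exonic bases (15.3%) with RUVBL1 on the opposite strand in GENCODE 29, and no source used here states whether the authors counted by strand. The part of this overlap in the EEFSEC value was not tested. The number of reads assigned to EEFSEC is not given, since the values of single libraries are not used here. Whether EEFSEC had few reads was therefore not tested either.

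**Figure D3:**
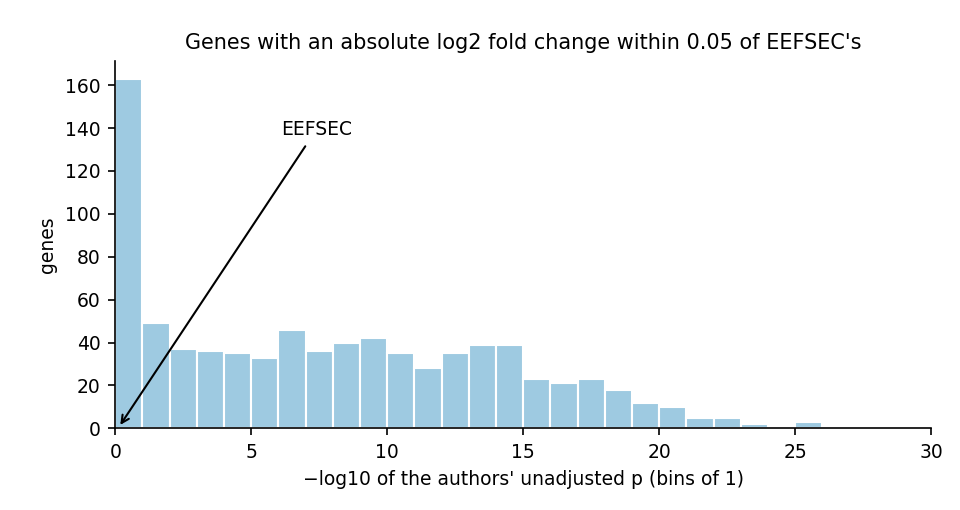
The number of genes (vertical axis) by −log10 of the authors' unadjusted p (horizontal axis, bins of 1) for the 817 genes whose absolute log2 fold change lies within 0.05 of that of EEFSEC. The arrow marks EEFSEC at the low end of the first bin, while most of these genes lie to the right of it.

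SCLY (ENSG00000132330.16; chr2:238060889-238099413, plus strand), the lyase that returns selenium from selenocysteine for reuse, had a log2 fold change of 0.28 in the authors' deposited table. Its adjusted p was 0.0729 and its unadjusted p 0.0439, close to those of SEPHS2. In GENCODE 29, SCLY shares 2311 of 11733 exonic bases (19.7%) with the read-through gene UBE2F-SCLY on the same strand, so reads from these bases could be assigned to either or to neither. NFS1, the cysteine desulfurase of mitochondria and a relative of SCLY that uses the same cofactor, was lower at -0.96 (adjusted p = 1.05e-07 in the same table). Of its partners in iron-sulfur cluster assembly that are described here, the scaffold ISCU was lower at -0.51 (adjusted p = 0.000203, not passing a Bonferroni adjustment) and LYRM4 was at 0.16 (adjusted p = 0.382). PSTK shares only 104 of 6118 exonic bases with other genes, and SEPHS1, SEPHS2, SECISBP2 and SEPSECS share none.

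Other factors that act on the selenocysteine tRNA or on SECIS hairpins were counted from a list of 9, all tested, of which 4 were higher and 1 lower in the authors' deposited table (median log2 fold change 0.20). The share called, 55.6%, is close to the 57.6% of all tested genes. With a Bonferroni adjustment TRIT1 and NCL remained, and 0 were lower, beside 16.3% of all tested genes higher and 15.8% lower. TRIT1, which modifies the base next to the anticodon of this tRNA, was higher at 1.10 (adjusted p = 6.97e-16). ALKBH8, which modifies the anticodon's wobble base, was higher at 0.46 (adjusted p = 0.00691). TRNAU1AP, a protein associated with the selenocysteine tRNA, was higher at 0.51 (adjusted p = 9.46e-05), and nucleolin, NCL, was higher at 0.45 (adjusted p = 7.99e-08). ELAVL1, an RNA-binding protein, was lower at -0.34 (adjusted p = 7.66e-05). SARS, the seryl-tRNA synthetase that loads the serine, was at -0.04 (adjusted p = 0.766), RPL30 at 0.20 (adjusted p = 0.0817) and EIF4A3 at 0.08 (adjusted p = 0.503). The mRNA changes of SARS, for the serine-loading step, and of PSTK, for the kinase step, thus both lay near 0. The activity of these steps was not tested. TRIT1 was the factor of this list with a change of more than 2-fold.

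The proteins that the machinery makes are the selenoproteins, and 23 of 25 listed genes carried an adjusted p, SEPHS2 among them. Higher values were called for 9, lower values for 10, and 4 did not pass in the authors' deposited table, with a median log2 fold change of 0.22. The share called was 82.6%, beside 57.6% of all tested genes, which describes a list chosen with results known. With a Bonferroni adjustment 7 were higher and 1, SELENON, was lower, beside 16.3% and 15.8% of all tested genes by that rule. Most of the lower calls thus rest on the less strict adjustment. The 6 with the smallest p were TXNRD1, SELENON, SELENOS, SELENOI, SELENOK and SELENOF. The thioredoxin reductase TXNRD1 was higher at 1.86 (adjusted p = 1.77e-118), and SELENON, an ER membrane protein, was lower at -1.82 (adjusted p = 3.20e-58). SELENOS (1.99) and SELENOK (1.45), both of ER-associated degradation, SELENOI (1.26), of phospholipid synthesis, and SELENOF (1.01), of ER glycoprotein quality control, were higher in the same table.

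The place of the UGA differs among these mRNAs, which is why the codons of the 5 higher ones are shown. Capitals mark the codon annotated as selenocysteine in GENCODE 29 (GRCh38), with up to 24 coding bases before it and up to 21 after it, the stop codon included.
TXNRD1, codon 498 of 499: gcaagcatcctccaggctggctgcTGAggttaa
SELENOS, codon 188 of 189: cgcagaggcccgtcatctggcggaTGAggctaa
SELENOK, codon 92 of 94: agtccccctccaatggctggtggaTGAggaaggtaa
SELENOI, codon 387 of 397: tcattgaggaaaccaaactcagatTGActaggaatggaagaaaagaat
SELENOF, codon 96 of 165: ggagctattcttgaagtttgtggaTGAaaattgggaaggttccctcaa
The codons lie at chr12:104348413-104348415 (TXNRD1, plus strand), chr15:101272777-101272779 (SELENOS, minus), chr3:53885831-53885833 (SELENOK, minus), chr2:26389068-26389070 (SELENOI, plus) and chr1:86880690-86880692 (SELENOF, minus). In TXNRD1 and SELENOS 1 codon remains between the UGA and the stop, in SELENOK 2, in SELENOI 10 and in SELENOF 69. In SEPHS2, 388 codons follow the UGA at codon 60.

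Selenium reaches cells partly as SELENOP, a secreted selenoprotein taken up by the receptors LRP8 and LRP2. All 3 genes were lower in libraries D to F in the authors' deposited table: SELENOP at -2.31 (adjusted p = 0.00367), LRP8 at -0.50 (adjusted p = 2.01e-05) and LRP2 at -2.37 (adjusted p = 0.00452). By the same rule 27.9% of all tested genes were lower, and with a Bonferroni adjustment none of the 3 passed (adjusted p of 0.108 for LRP8 and 1 for the other two).

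UGA recoding competes with termination, and a UGA read as a stop can expose an mRNA to nonsense-mediated decay. The termination genes tested were all higher in the authors' deposited table: the release factor ETF1 at 0.74 (adjusted p = 9.65e-17), its GTPase partner GSPT1 at 0.40 (adjusted p = 1.04e-05) and the recycling factor ABCE1 at 0.88 (adjusted p = 3.78e-17). Of all tested genes 29.7% were higher, the list is small, and none of its 3 genes reached 2-fold. Of the 9 decay factors counted here 2 were higher, SMG9 at 0.71 (adjusted p = 3.09e-12) and UPF2 at 0.40 (adjusted p = 3.98e-05), of which SMG9 alone passed a Bonferroni adjustment. The remaining 7 did not pass, among them the helicase UPF1 at -0.05 (adjusted p = 0.695).

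A list of elongation factors for ordinary codons, and of factors that work with or resemble them, was set beside EEFSEC. Of 10 listed genes, EEF1B2 and EEF1G were absent from the authors' deposited table and EEF1D carried no adjusted p. Of the 7 tested, 2 were higher and 3 lower (median log2 fold change -0.07), beside 29.7% and 27.9% of all tested genes. With a Bonferroni adjustment GFM1 alone was higher, and TUFM and GFM2 were lower, beside 16.3% and 15.8% of all tested genes. EEF1A1 was at -0.07 (adjusted p = 0.469) and EEF1A2 was higher at 0.32 (adjusted p = 0.00397). The lower members were the mitochondrial factors TUFM (-0.56, adjusted p = 1.17e-08), TSFM (-0.60, adjusted p = 8.93e-05) and GFM2 (-0.68, adjusted p = 1.80e-07), whereas the mitochondrial GFM1 was higher at 0.47 (adjusted p = 7.14e-06).

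**Figure D4:**
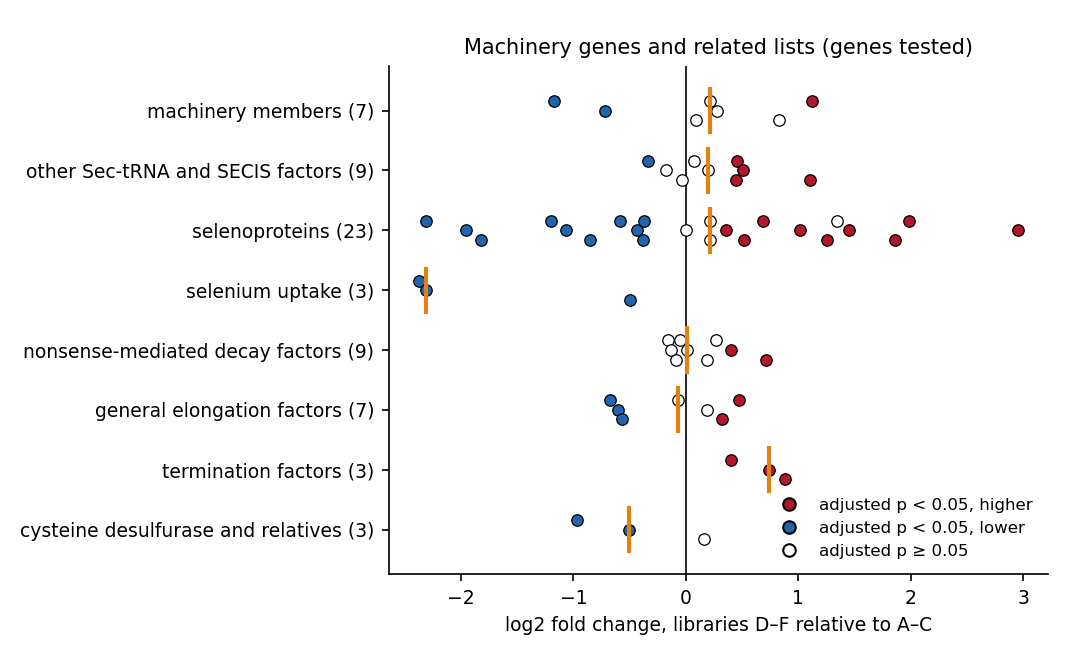
Log2 fold change (libraries D to F over libraries A to C, horizontal axis) of every tested gene of the machinery and of 7 related lists, with the number tested in brackets; filled points passed an adjusted p under 0.05 and the orange bar is the list's median. The 23 selenoproteins, the longest list, spread widest, from -2.31 (SELENOP) to 2.95 (DIO2), and a range can widen with the number of genes. The 9 decay factors counted stay between -0.16 and 0.71. Vertical offsets within a list only separate the points.

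Counted at 2-fold or more, the members held SEPSECS as the 1 higher gene and SEPHS1 as the 1 lower gene in the authors' deposited table, against 12.8% of tested genes higher and 11.3% lower by this rule. SECISBP2 drops out of this count because its fold is 1.65.

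The promoters were read for letters of stress-response motifs, since the title of the series names reactive oxygen species and ER stress. A further motif, the E-box, was read as well and is not counted here as a stress-response motif. RefSeq start sites (GRCh38.p14) were matched for 6 of the 7 members, all but SEPSECS, with 7 windows of 250 bases before a start, since SECISBP2 has a pair of starts. Both strands were searched for the site of ATF4, the transcription factor of the integrated stress response (TGATGCAA), the core of the antioxidant element bound by NRF2 (TGACNNNGC), the E-box (CACGTG), which reads the same on both strands, and the ER stress element. No match of one motif overlapped a match of another in these windows. SEPHS1, the member with the smallest p, was the only one of the 6 with the ATF4 letters, which 0.772% of 35114 windows of this length hold. The sequences of SEPHS1 and SECISBP2 are shown as those of the lower members, with matches in capitals.
SEPHS1, chr10:13348294-13348543, minus strand: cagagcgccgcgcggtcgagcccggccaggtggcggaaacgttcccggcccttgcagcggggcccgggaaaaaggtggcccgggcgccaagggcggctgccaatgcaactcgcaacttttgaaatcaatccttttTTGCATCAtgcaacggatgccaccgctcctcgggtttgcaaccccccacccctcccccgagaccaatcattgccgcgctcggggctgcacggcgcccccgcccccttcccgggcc
SECISBP2, chr9:89318250-89318499, plus strand: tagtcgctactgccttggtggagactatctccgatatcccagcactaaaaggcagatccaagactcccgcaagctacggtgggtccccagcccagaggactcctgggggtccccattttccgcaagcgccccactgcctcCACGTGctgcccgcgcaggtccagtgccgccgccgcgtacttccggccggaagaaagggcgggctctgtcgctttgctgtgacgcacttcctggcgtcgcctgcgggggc
In SEPHS1 the match reads TTGCATCA, the same letters on the other strand, and begins 115 bases before the start. In SECISBP2 the E-box begins 110 bases before the start. The E-box was also in the windows of EEFSEC and SEPHS2, that is in 3 of the 7 windows (3 of 6 genes), and in 6.35% of all windows. The antioxidant core was in SCLY and in the other window of SECISBP2, that is in 2 of the 7 windows, and in 10.9% of all windows. The ER stress element was in none of the 7 windows and in 0.0740% of all. These matches describe letters in the windows and do not show binding.

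Markers of tuft cells and of other cell types were read only as differences, since levels per library are not used here. Of 8 tuft cell markers 4 were lower, POU2F3 among them at -1.71, and 1 was higher, GFI1B at 0.54, in the authors' deposited table. The other 3, ASCL2, TRPM5 and CHAT, did not pass. The share of these 8 called, 62.5%, is close to the 57.6% of all tested genes. By the same rule 29.7% of all tested genes were higher and 27.9% lower. Of 4 neuroendocrine markers tested 2 were higher and 1 lower, of 5 fibroblast markers 3 were lower, of 4 leukocyte markers 2 were higher, and neither of 2 endothelial markers passed. Their part in the differences of the 7 genes was not tested.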

How the data were processed

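RNA of 6 samples of H1048 cells was sequenced, 3 per group. Per the submitters' processing notes, the tools were STAR, Trimmomatic, DESeq2 and HTSeq and the build hg38. Their versions, the annotation, the use of strand and any shrinkage of fold changes are not stated in the sources used here. The authors deposited, per the file headers, log2 fold changes, p-values and adjusted p-values for a comparison of libraries D to F with libraries A to C, and a positive value is read as higher in D to F from the order of the sets in the table's name. A shorter table of the same comparison was not used. The labels do not mention the library letters, so the 36 columns of values per library were not used; depth per sample, standard errors and a count model are therefore not given, and the count test of the design was replaced by the authors' p-values as the design provides.

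Of 16953 genes, 977 were listed with 1 as adjusted p and were taken to have none. A Benjamini-Hochberg adjustment over the other 15976 genes gave all 15976 deposited values within 1e-06. A gene was called at an adjusted p under 0.05. The adjustment code was tested on simulated data. The replicates are called biological in the series' design text; cultures are not described further. All 7 members are named; of each related list up to 6 called genes with the smallest p are named, as are sequence relatives of the members and, chosen after their values were seen, genes that complete a small list. Some genes of the related lists and some sequences are not reported here and were left out of the lists and their counts after values had been seen. The members and lists were chosen with earlier results of these data known. Coordinates are GENCODE 29 (GRCh38), 1-based; promoters are RefSeq GRCh38.p14. SEPHS1 and SEPHS2 codons were aligned through their translations with Biopython 1.88. Alternatives were a stricter threshold, other adjustments, a 2-fold minimum and centring. Scripts ran in Python 3.11.15 with matplotlib 3.10.9, scipy 1.17.1, numpy 2.4.6 and pandas 2.3.3.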

Additional observations from a re-analysis of the deposited data

How the results depend on the processing

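No paired analysis was possible because the labels do not mention the library letters, so that values per library carry no replicate number; for the same reason leaving out a replicate, another normalization and another filter on low counts were not run. The counts of members, 1 higher and 2 lower, were the same at an adjusted p under 0.01, with the adjustment over all 16953 genes, with a Bonferroni adjustment and with directions from fold changes from which the median over all genes (0.06) was subtracted; the background by the Bonferroni rule was 16.3% higher and 15.8% lower. No member's log2 fold change turned sign on centring, with PSTK the closest to 0 at 0.03. With a 2-fold minimum, 1 member was lower in place of 2. By the same minimum, 1 other tRNA and SECIS factor was higher in place of 4 and 0 lower in place of 1, 5 selenoproteins were lower in place of 10, 0 decay factors were higher in place of 2, 0 elongation factors were higher in place of 2 and 0 lower in place of 3, 0 termination factors were higher in place of 3, and 0 of NFS1 and its partners were lower in place of 2. In these counts the 2-fold minimum removes genes by its construction. With a Bonferroni adjustment of the related lists, chosen after seeing the data, 2 other tRNA and SECIS factors were higher in place of 4 and 0 lower in place of 1, 1 selenoprotein was lower in place of 10, 0 uptake genes were lower in place of 3, 1 decay factor was higher in place of 2, 1 elongation factor was higher in place of 2, and 1 of NFS1 and its partners was lower in place of 2. The other 57 of 73 values under an alternative stayed within 1.5 times the reported count or kept their sign. Depth limits cannot be given without the values per library.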
